A study of Mus musculus with 24 samples.

Results

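The genes described here are those whose RNA differed between Mof knockdown and scramble control podocytes when both had been given Adriamycin. They are all 9578 rows of the authors' deposited table for that comparison, of 17184 genes that were tested in it. No row has an adjusted p of 0.05 or more, so an absent gene was either not tested or did not pass, and is called not listed below. The cells were MPC5, an established line of mouse glomerular podocytes, differentiated at passage 20. One group of 3 samples carried the Mof knockdown and one group of 3 samples a scrambled control. Both groups received Adriamycin at 0.25 µg/ml for 24 h, so the drug was common to them and its own effect was not measured here. The construct of the knockdown is not named in the labels, and all samples come from a single cell line. Values from the same line given vehicle (DMSO) are set beside the podocyte values for some genes and families. So are values from mouse embryonic fibroblasts (MEFs, passage 2, Mof knockout against wild type, Adriamycin at 0.1 µg/ml for 24 h). Nothing in the labels says that the 3 samples of a group came from separate cultures. The spread behind each p-value is that of these samples and could be technical.

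MOF, the product of Kat8, transfers acetyl groups to histone H4 and other proteins and works within the MSL and NSL complexes. The MSL complex is known from dosage compensation of the X chromosome in flies, and the NSL complex binds the promoters of many widely expressed genes in mammals. Adriamycin (doxorubicin) is an anthracycline that traps topoisomerase II on DNA, breaks the DNA and activates p53. Podocytes are the cells of the kidney filter. Their foot processes, held up by actin, are joined by the slit diaphragm, and in rodents Adriamycin is used to injure them.

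The knockdown and scramble cells differed over much of the transcriptome. Of the tested genes 55.7% were listed, 4776 higher with the knockdown (27.8% of those tested) and 4802 lower (27.9%). The even split depends on the scaling: recentred on the 14 listed reference genes, whose median was 0.24, 2984 genes were higher and 4828 lower. Being listed, these 14 had themselves passed the threshold, 9 higher and 5 lower, from -0.99 to 1.12. Their median is therefore an alternative scaling and not a stable baseline. Most differences were modest: the median absolute log2 fold change was 0.65, or 1.57-fold, and 36.9% of the listed genes differed by less than 0.5 on the log2 scale. At least 2-fold, 1179 genes (6.86%) were higher and 1386 (8.07%) lower. Values of single samples, and with them library depths, are not in the table. The error given for each gene is therefore the standard error (SE) of its fold change, whose median was 0.0847. The median mean normalized count over the 6 samples was 674, and the largest adjusted p listed was 0.0499, for Lphn3. The median log2 fold change of all listed genes was -0.12, which is the value to set beside the medians of the families below.

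**Figure D1:**
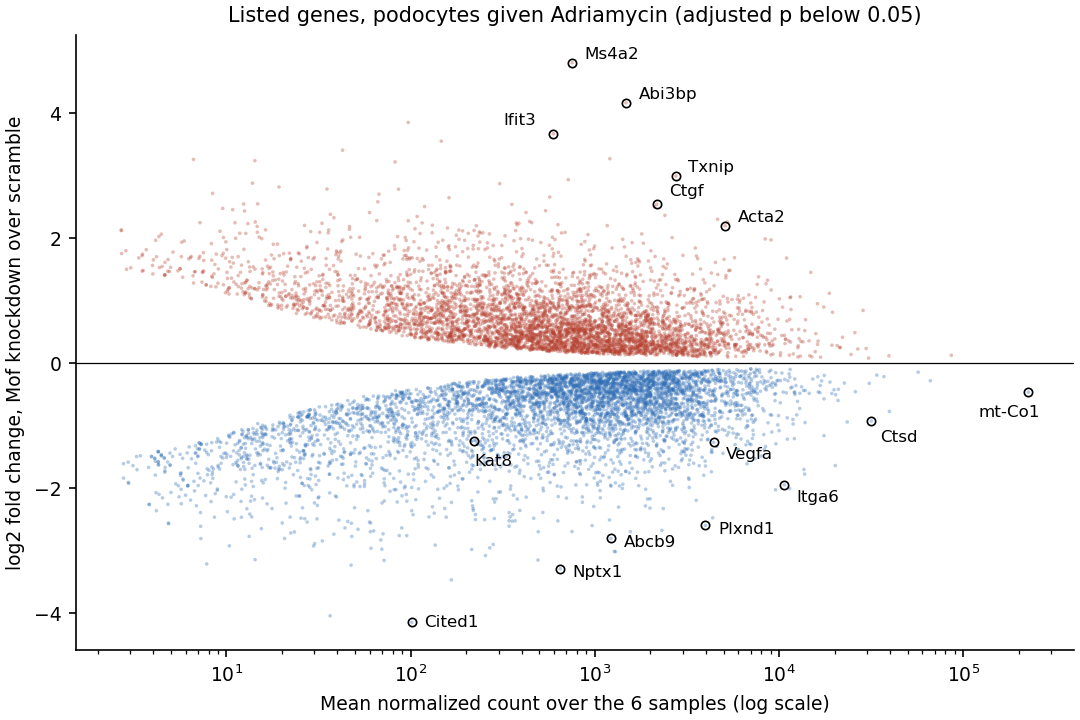
log2 fold change of each of the 9578 listed genes (Mof knockdown over scramble, vertical axis) against its mean normalized count (horizontal axis, log scale); red points are higher and blue points lower with the knockdown, and circled genes are named in the text. Ms4a2 at 4.81 and Cited1 at -4.15 mark the extremes where the mean count was 100 or more, and the empty band around 0 narrows towards high counts because only genes past the threshold are listed.

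Kat8 itself was lower. In the authors' deposited table Kat8 (ENSMUSG00000030801, GRCm38 chromosome 7, 127912516 to 127925837, protein coding) was at -1.24 ± 0.14 (SE) on the log2 scale, at a mean count of 222, with an adjusted p of 2.99e-19 in DESeq2 as run by the authors. That leaves 42.3% of the scramble level. The sign of Kat8 was used to read the direction of the table, so it does not test the labels. Prss8, named for its position only, overlaps Kat8 on the other strand. The strand setting of the read counting is not given in the sources available. The change of Kat8 differed from that in vehicle podocytes by 0.25 ± 0.20 (z test, Benjamini-Hochberg adjusted p 0.271) and from that in MEFs given Adriamycin by 0.47 ± 0.21 (0.0291).

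The labelled cell type was checked against its markers. Of 20 podocyte markers 12 were listed, 6 higher and 6 lower. Nphs1, Wt1, Tcf21, Lmx1b, Ptpro and Vim were not listed, and from this table it cannot be told whether they were unexpressed or unchanged. Kirrel, Podxl, Cd2ap and Nes were listed, with mean normalized counts of 2004, 504, 4079 and 9247 in the authors' deposited table. Markers of other kidney and blood cells were looked up in the same way, and those not listed may likewise be expressed without passing the threshold. Of 17 leukocyte markers 3 were listed, of 12 endothelial markers 3, of 13 tubular markers 3 and of 14 mesangial and fibroblast markers 5, and Ptprc, Pecam1, Cdh5, Umod, Pdgfrb and Col1a2 were not among them. The 3 tubular markers all rose: the endocytic receptor Lrp2 by 1.08 ± 0.05, the cadherin Cdh16 by 1.71 ± 0.10 and the water channel Aqp1 by 1.79 ± 0.31 in the authors' deposited table. Csf1r, the receptor of macrophage colony-stimulating factor, rose by 2.65 ± 0.18, while the macrophage markers Cd68 and Cd14 fell by 0.47 ± 0.09 and 0.66 ± 0.09 in the authors' deposited table. Whether a change in the mixture of cells had a part in any result was not tested. In bulk RNA, fewer cells of a type and less RNA per cell cannot be told apart.

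Of the other MYST acetyltransferases, all 4 were listed, and none fell as far as Kat8. Kat5, the catalytic subunit of the NuA4 complex, was at 0.72 ± 0.08, Kat7 at 0.29 ± 0.05, Kat6a at 0.15 ± 0.05 (below 0 if recentred on the reference genes) and Kat6b at -0.39 ± 0.06 in the authors' deposited table. Both listed partners of the MSL complex fell, its scaffold Msl1 by 0.57 ± 0.06 and the chromodomain protein Msl3 by 0.26 ± 0.06 in the authors' deposited table. Msl2, the third gene of that list, was not listed. With vehicle 2 genes of the MSL list were higher and 0 lower. Msl3 was listed in both podocyte conditions, with opposite directions, and its difference passed the z test. The NSL complex list, which also holds the paralogues Kansl1l and Phf20l1, split: 4 of 10 genes rose and 2 fell. Hcfc1, a host cell factor that binds promoters, was at 0.76 ± 0.05, Phf20, a reader of methylated lysine, at 0.57 ± 0.07 and Kansl2 at 0.32 ± 0.06, against -0.30 ± 0.06 for Kansl3 in the authors' deposited table. Kansl1, Mcrs1, Ogt and Wdr5 were not listed. Acetyltransferases outside the MYST family included Kat2a (0.997 ± 0.09) and Kat2b (0.84 ± 0.07), the catalytic subunits of the SAGA and related complexes, and Ncoa1 (-1.12 ± 0.07), a nuclear receptor coactivator, in the authors' deposited table. On the removal side, 4 of 7 sirtuin genes were listed and all 4 fell, with Sirt1 at -0.92 ± 0.08, while classical deacetylases included Hdac3 at 0.74 ± 0.06 and Hdac5 at -1.38 ± 0.06 in the authors' deposited table.

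Genes that copy DNA were mostly higher. Of 31 genes for replication polymerases, the sliding clamp, chromatin assembly and ligation, 26 rose and 2 fell, with a median log2 fold change of 0.44 over the 28 listed. The polymerase delta subunit Pold2 rose by 1.72 ± 0.10, the hemimethylated-DNA reader Uhrf1 by 1.24 ± 0.05 and the clamp Pcna by 0.97 ± 0.04 in the authors' deposited table. The exceptions were Chaf1b, a subunit of the chromatin assembly factor, at -1.12 ± 0.06 and the small polymerase subunit Pold4 at -1.002 ± 0.07 in the authors' deposited table. Origin licensing and helicase genes rose in 18 of 26 cases and fell in 5; the loader Cdc6 was at 1.17 ± 0.06 and Mcm2 of the helicase at 0.88 ± 0.04, whereas Gins2 was at -0.90 ± 0.08 in the authors' deposited table. Enzymes that supply nucleotides behaved unevenly, with 7 of 15 higher and 4 lower. The large subunit of ribonucleotide reductase, Rrm1, was at 1.44 ± 0.05 and thymidine kinase Tk1 at 1.71 ± 0.07 in the authors' deposited table.

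Regulators of the entry into S phase rose on both sides of the brake. Of 11 G1 cyclins and kinases 8 rose and 1 fell: cyclin E1, Ccne1, was at 1.75 ± 0.11, Cdk2 at 1.41 ± 0.06, the ubiquitin ligase subunit Skp2 at 1.28 ± 0.08 and Cdk4 at 1.07 ± 0.05, and Ccnd2 at -0.71 ± 0.06 in the authors' deposited table. All 7 inhibitors of these kinases were listed, and 6 of them rose. Cdkn2d was at 0.93 ± 0.14, Cdkn2a (p16 and p19) at 0.82 ± 0.06, Cdkn1b (p27) at 0.76 ± 0.07, Cdkn2b at 0.65 ± 0.08, Cdkn2c at 0.58 ± 0.06 and Cdkn1a (p21) at 0.41 ± 0.04 in the authors' deposited table. The inhibitor Cdkn1c (p57), an imprinted gene that mature podocytes are known to express, went the other way at -1.95 ± 0.17 in the authors' deposited table. The repressive E2f8 (1.73 ± 0.08) and E2f7 (0.83 ± 0.05) rose while E2f1 (-0.65 ± 0.06), Rb1 (-0.64 ± 0.04) and Rbl2 (-0.97 ± 0.05) fell in the authors' deposited table.

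Mitotic genes were also mostly higher. Kinetochore, cohesin and condensin genes rose in 36 of 47 cases and fell in 5, with a median of 0.49; the condensin subunits Ncapg2 and Ncapd3 were at 1.42 ± 0.06 and 1.25 ± 0.06 in the authors' deposited table. The centromere motor Cenpe (-0.83 ± 0.04) and the centromeric histone Cenpa (-0.65 ± 0.06) fell in the authors' deposited table. Of 38 genes of mitotic entry and exit 22 rose and 11 fell. The proliferation marker Mki67 was at 1.03 ± 0.06 and the cytokinesis scaffold Anln at 1.32 ± 0.06, whereas cyclin B1, Ccnb1 (-0.59 ± 0.05), securin, Pttg1 (-1.07 ± 0.07), and the anaphase activator Cdc20 (-0.62 ± 0.05) fell in the authors' deposited table. Spindle kinesins rose in 9 of 14 cases and fell in 1, all within -0.61 to 0.60.

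Windows from RefSeq (GRCm38.p6, 250 bases before to 50 after the first start of a gene) were searched on both strands for the elements known to drive these programmes, and 7294 of the listed genes had such a window. TTCCCGC, a core letter string of E2F sites, was present in 17 of 45 windows of higher replication and nucleotide genes (37.8%), in 1 of 6 windows of lower ones (16.7%) and in 4.67% of all 27025 windows. Among all listed genes the share was 10.96% for higher and 7.41% for lower ones. TTTGAA, the cell cycle homology region of mitotic promoters, was present in 31 of 59 windows of higher mitotic genes (52.5%) and in 9 of 15 windows of lower ones, against 18.2% of all windows. The letters were thus present in most windows of both directions. The 250 bases before the start are shown for the replication gene Uhrf1, which rose, the proliferation gene Mki67, which rose, and Cdc20, which fell, with the matched letters in capitals. They lie at chr17:56303087-56303336 (plus strand), chr7:135716380-135716629 (minus strand) and chr4:118437344-118437593 (minus strand).
Uhrf1: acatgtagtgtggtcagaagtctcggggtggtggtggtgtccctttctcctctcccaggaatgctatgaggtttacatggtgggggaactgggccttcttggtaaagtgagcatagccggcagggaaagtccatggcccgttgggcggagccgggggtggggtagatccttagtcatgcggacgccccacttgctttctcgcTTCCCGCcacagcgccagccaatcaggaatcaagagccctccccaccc
Mki67: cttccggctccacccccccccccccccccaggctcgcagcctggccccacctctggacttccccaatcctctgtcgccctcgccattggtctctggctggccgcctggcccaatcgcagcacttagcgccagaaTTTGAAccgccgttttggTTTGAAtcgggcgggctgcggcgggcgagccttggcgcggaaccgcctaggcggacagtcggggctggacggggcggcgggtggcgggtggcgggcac
Cdc20: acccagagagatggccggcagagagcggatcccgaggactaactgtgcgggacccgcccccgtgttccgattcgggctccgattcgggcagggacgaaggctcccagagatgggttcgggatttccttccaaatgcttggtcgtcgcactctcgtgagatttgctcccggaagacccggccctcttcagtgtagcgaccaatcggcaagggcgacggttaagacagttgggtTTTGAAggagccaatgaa
Counted from the start, the match begins at -48 in Uhrf1, at -116 and -98 in Mki67 and at -18 in Cdc20.

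Repair genes that act at replication forks were mostly higher. Of 15 Fanconi anaemia genes, which unhook crosslinked DNA, 10 rose and 1 fell, with a median of 0.998 over the 11 listed. The deubiquitinase Usp1 was at 1.42 ± 0.06, the conjugating enzyme Ube2t at 1.27 ± 0.10, the ligase Fancl at 1.13 ± 0.14 and its substrate Fancd2 at 0.96 ± 0.07, with Fance at -0.28 ± 0.10 in the authors' deposited table. Of 30 genes of homologous recombination 21 rose and 5 fell. Rad51c rose by 2.07 ± 0.13, Brca2 by 1.12 ± 0.07 and Brca1 by 0.75 ± 0.05 in the authors' deposited table. Of the damage-sensing kinases, Atm was at 1.24 ± 0.07 and Atr at 0.54 ± 0.07, and the checkpoint adaptor Clspn was at 1.33 ± 0.06 in the authors' deposited table. The kinase and clamp genes as a group had a median of 0.22, which turned negative when fold changes were recentred on reference genes (-0.02). The target of the drug moved as well: Top2a, the topoisomerase of dividing cells, rose by 1.17 ± 0.05, Tdp1, which removes trapped topoisomerase I, by 1.20 ± 0.17, and Tdp2, which removes topoisomerase II, by 0.14 ± 0.05 (below 0 if recentred on the reference genes) in the authors' deposited table. Top2b was not listed.

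Genes that handle the drug itself went in different directions. Of 11 efflux pump genes 5 rose and 1 fell, with the P-glycoprotein gene Abcb1b at 0.92 ± 0.10 and Abcg2 at 0.80 ± 0.12 in the authors' deposited table. Among reductases and oxidases, Nqo1 rose by 1.45 ± 0.08, while carbonyl reductase Cbr3 was at -1.76 ± 0.09 and xanthine dehydrogenase Xdh at -2.23 ± 0.09 in the authors' deposited table. Whether the cells held the same amount of drug was not measured.

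The p53 pathway did not move as a block. Of 13 arrest targets 10 rose and 2 fell, with a median of 0.37. Gadd45g was at 0.93 ± 0.08, Gadd45b at 0.83 ± 0.06 and Gadd45a at 0.63 ± 0.07, while 14-3-3 sigma, Sfn, was at -1.06 ± 0.11 and Zmat3 at -0.40 ± 0.04 in the authors' deposited table. Of 40 death and stress targets 14 rose and 17 fell. The secreted stress factor Gdf15 rose by 1.37 ± 0.08 and Bbc3 (PUMA) by 0.65 ± 0.07, while Fdxr fell by 1.75 ± 0.09, Pmaip1 (NOXA) by 0.42 ± 0.05 and Fas by 0.39 ± 0.06 in the authors' deposited table. Mdm4, an inhibitor of p53, was at 1.03 ± 0.13, an SE 2.75 times the median of genes with like counts, and Mdm2, its partner and a p53 target, at 0.28 ± 0.04 in the authors' deposited table. Trp53 was not listed. Over the 59 genes of the pathway 27 rose and 21 fell here, against 5 and 14 with vehicle and 30 and 0 in MEFs given Adriamycin. Of arrest targets listed in both podocyte conditions 3 of 4 were opposite (Ccng1, Gadd45g and Plk2), and of death and stress targets 7 of 12. The share over all genes listed in both conditions was 34.3%.

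Survival and death genes of the BCL2 family split. All 3 listed survival genes rose: Bcl2 by 1.25 ± 0.14, Bcl2l1 by 0.79 ± 0.06 and Mcl1 by 0.18 ± 0.04 in the authors' deposited table, the last of which would be below 0 after recentring on the reference genes. Of 6 listed death genes 2 rose and 4 fell, among them Bcl2l11 (BIM) at -0.60 ± 0.07 and Bad at -0.70 ± 0.07 in the authors' deposited table. Of 20 caspase, apoptosome and inhibitor genes 14 rose and 5 fell. The initiators Casp8 and Casp2 were at 1.16 ± 0.07 and 1.03 ± 0.06, and cytochrome c, Cycs, at -0.61 ± 0.05 in the authors' deposited table. The necroptosis effector Mlkl fell by 0.61 ± 0.06 in the authors' deposited table, and Ripk3 was not listed.

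The slit diaphragm, the junction between podocyte foot processes, rose in 9 of 20 genes and fell in 3. Kirrel (NEPH1), a nephrin partner, was at 1.53 ± 0.06, the polarity gene Pard6b at 1.23 ± 0.11, podocalyxin, Podxl, at 1.06 ± 0.09, the polarity kinase Prkci at 1.04 ± 0.06 and the adaptor Cd2ap at 0.98 ± 0.05 in the authors' deposited table. Pard3, at -0.66 ± 0.09, and Nck2, at -0.43 ± 0.10, were lower in the authors' deposited table. Other podocyte genes split evenly: 7 of 20 surface, secreted and other markers rose and 7 fell, as did 15 and 14 of 43 cytoskeleton and disease genes and 6 and 4 of 18 transcription factors. Among the lower markers, the vascular growth factor Vegfa was at -1.27 ± 0.05, Bmp7 at -1.87 ± 0.20 and the integrin ligand Npnt at -0.84 ± 0.06 in the authors' deposited table. Plaur, the urokinase receptor induced in podocyte injury, rose by 1.63 ± 0.08 in the authors' deposited table. Synpo, an actin-bundling podocyte gene named here after its value was seen, was at 1.10 ± 0.18 in the authors' deposited table. Of the receptors that hold podocytes on the basement membrane 8 of 18 rose and 8 fell. The laminin receptor alpha chain Itga6 fell by 1.95 ± 0.06, whereas the podocyte integrin Itga3 was at 0.59 ± 0.04 in the authors' deposited table. In the basement membrane itself, Col4a5 was at 1.34 ± 0.12, perlecan, Hspg2, at -0.46 ± 0.04 and Col18a1 at -0.42 ± 0.05 in the authors' deposited table.

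Actin genes and the genes switched on by the actin-sensing factors SRF, YAP and TEAD were mostly higher. Of 45 actin, myosin and regulator genes 27 rose and 9 fell, with a median of 0.52, and 9 of them rose at least 2-fold. The myosin light chain Myl9 was at 2.66 ± 0.22, smooth muscle actin, Acta2, at 2.20 ± 0.07, Actb at 1.12 ± 0.05 and tropomyosin, Tpm1, at 1.06 ± 0.04 in the authors' deposited table. The kinase Limk2 (-1.53 ± 0.05) and cofilin, Cfl1 (-0.50 ± 0.05), which it inhibits, both fell in the authors' deposited table. Of 15 targets of SRF, YAP and TEAD 9 rose and 4 fell, with a median of 0.76. Ctgf was at 2.54 ± 0.21, Ankrd1 at 2.26 ± 0.24, Thbs1 at 1.97 ± 0.05, Cyr61 at 1.68 ± 0.05 and Amotl2 at 1.41 ± 0.05 in the authors' deposited table. The SEs of Ankrd1, Ctgf and Myl9 were 5.05, 3.81 and 2.45 times the median of genes with like mean counts, so their size was less certain than that of Acta2 (1.47 times). Of the factors themselves, Tead2 was at 0.66 ± 0.09, Tead3 at -0.75 ± 0.07 and Srf at -0.29 ± 0.06 in the authors' deposited table, and Yap1, Wwtr1 and Tead1 were not listed.

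CATTCC, the letters bound by TEAD, was present in 5 of 6 windows of higher targets (83.3%), in 1 of 3 windows of lower ones and in 14.7% of all windows. The CArG box of SRF was present in 3 of 29 windows of higher actin genes and targets (10.3%), in 0 of 11 windows of lower ones and in 1.59% of all windows. The 250 bases before the start are shown for Ankrd1 and Cyr61, with CATTCC or its reverse complement in capitals, and for Myl9, with the CArG box in capitals, since these rose at least 2-fold. They lie at chr19:36119845-36120094 (minus strand), chr3:145649986-145650235 (minus strand) and chr2:156775214-156775463 (plus strand).
Ankrd1: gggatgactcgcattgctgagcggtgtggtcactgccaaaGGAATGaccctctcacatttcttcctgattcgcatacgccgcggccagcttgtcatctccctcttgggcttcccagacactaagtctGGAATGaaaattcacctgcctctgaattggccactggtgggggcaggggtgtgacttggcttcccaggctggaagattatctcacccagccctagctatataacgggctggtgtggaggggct
Cyr61: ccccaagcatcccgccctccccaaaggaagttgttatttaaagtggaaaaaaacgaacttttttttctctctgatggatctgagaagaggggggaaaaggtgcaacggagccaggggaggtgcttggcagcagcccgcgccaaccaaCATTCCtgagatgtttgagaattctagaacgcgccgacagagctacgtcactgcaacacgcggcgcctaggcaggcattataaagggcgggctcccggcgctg
Myl9: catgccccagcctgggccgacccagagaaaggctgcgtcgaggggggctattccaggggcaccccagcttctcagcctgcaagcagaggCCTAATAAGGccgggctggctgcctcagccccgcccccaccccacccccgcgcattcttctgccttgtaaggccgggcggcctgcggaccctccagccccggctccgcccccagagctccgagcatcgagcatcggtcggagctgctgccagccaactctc
Counted from the start, the matches begin at -210 and -123 in Ankrd1, at -103 in Cyr61 and at -161 in Myl9.

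**Figure D2:**
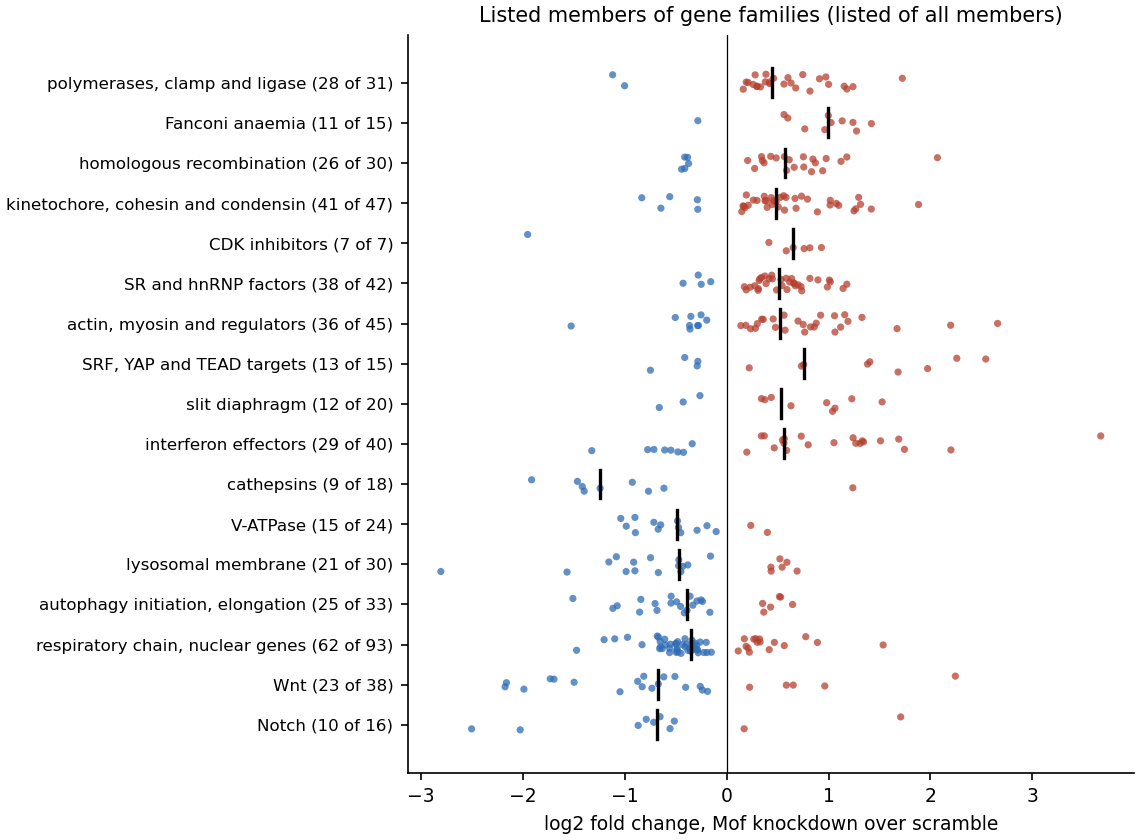
log2 fold change (horizontal axis) of the listed members of 17 gene families, 1 point per gene, red for higher and blue for lower with the knockdown; the black bar is the median of the listed members and the label gives listed of all members. Replication, Fanconi anaemia, splicing factor and actin families lie mostly to the right of 0, and cathepsin, V-ATPase, autophagy, respiratory chain, Wnt and Notch families mostly to the left.

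Lysosomal genes were mostly lower. Of 18 cathepsin genes 8 fell and 1 rose, with a median of -1.24 over the 9 listed. Ctsz was at -1.47 ± 0.09, Ctsa at -1.42 ± 0.05, Ctsf at -1.24 ± 0.09, Ctsd at -0.93 ± 0.04, Ctsb at -0.77 ± 0.05 and Ctsl at -0.62 ± 0.06, and Ctso rose by 1.24 ± 0.13 in the authors' deposited table. Of 24 genes of the proton pump that acidifies the lysosome 13 fell and 2 rose; Atp6v1h was at -1.04 ± 0.05, Atp6v0d1 at -0.99 ± 0.05 and Atp6v1e1 at -0.90 ± 0.05 in the authors' deposited table. Of 30 lysosomal membrane genes 15 fell and 6 rose. The peptide transporter Abcb9 was at -2.81 ± 0.08, Abca2 at -1.57 ± 0.06 and the chloride channel Clcn7 at -0.90 ± 0.04 in the authors' deposited table. The hydrolases were less uniform, with 20 of 40 lower and 14 higher; the cholesterol carrier Npc2 was at -1.22 ± 0.05 and the carboxypeptidase Scpep1 at 1.08 ± 0.07 in the authors' deposited table. Among the genes that couple lysosomes to mTOR and TFEB 12 of 29 fell and 5 rose, with folliculin, Flcn, at -1.28 ± 0.07 and Rragc at -1.04 ± 0.05 in the authors' deposited table.

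CACGTG, the centre of the element bound by TFEB, was present in 14 of 43 windows of lower lysosomal genes (32.6%), in 3 of 16 windows of higher ones (18.8%) and in 7.24% of all windows. Over all listed genes with a window it was present in 10.2% of higher and 10.4% of lower ones. The 250 bases before the start of Ctsd and Clcn7, which fell, are shown with these letters in capitals. They lie at chr7:142387828-142388077 (minus strand) and chr17:25133141-25133390 (plus strand).
Ctsd: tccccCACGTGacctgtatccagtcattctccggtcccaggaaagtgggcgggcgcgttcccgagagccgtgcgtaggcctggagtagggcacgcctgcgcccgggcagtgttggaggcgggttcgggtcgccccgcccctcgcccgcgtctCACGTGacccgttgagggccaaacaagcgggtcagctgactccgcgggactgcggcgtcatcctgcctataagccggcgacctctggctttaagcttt
Clcn7: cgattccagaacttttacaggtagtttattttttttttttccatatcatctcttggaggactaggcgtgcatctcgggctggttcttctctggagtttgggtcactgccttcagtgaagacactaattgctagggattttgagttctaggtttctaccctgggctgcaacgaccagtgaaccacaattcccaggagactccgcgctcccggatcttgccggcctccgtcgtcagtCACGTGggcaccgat
CACGTG reads the same on both strands, and begins at -245 and -98 in Ctsd and at -15 in Clcn7.

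Autophagy genes fell in 27 of 53 cases and rose in 10, and genes of endosome and vesicle traffic fell in 62 of 160 and rose in 36. Of 33 genes for autophagy initiation and elongation 19 fell and 6 rose, with a median of -0.39; Wipi1 was at -1.51 ± 0.06 and the starter kinase Ulk1 at -1.07 ± 0.06, against 0.65 ± 0.05 for its partner Rb1cc1 in the authors' deposited table. The mitophagy kinase Pink1 fell by 1.35 ± 0.08 in the authors' deposited table. Of 75 VPS, ESCRT and sorting nexin genes 35 fell and 12 rose. Among Rab GTPases 22 of 58 fell and 13 rose, with Rab43 at -1.96 ± 0.07, Rab31 at -1.89 ± 0.08 and the late endosomal Rab7 at -0.84 ± 0.04 in the authors' deposited table. Of 27 clathrin and adaptor genes 11 rose and 5 fell, with Dab2 at 1.51 ± 0.14 in the authors' deposited table.

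Nuclear genes of the respiratory chain fell in 46 of 93 cases and rose in 16, with a median of -0.35. Ndufb2 was at -1.20 ± 0.06 and Ndufa11 at -1.10 ± 0.07, both in complex I, while the assembly factor Ndufaf4 was at 1.54 ± 0.15 in the authors' deposited table. Of 15 genes of the mitochondrial genome 7 fell and 1 rose, by small amounts: mt-Co1 was at -0.46 ± 0.04, mt-Nd1 at -0.28 ± 0.06 and the ribosomal RNA mt-Rnr1 at -0.75 ± 0.07, and mt-Cytb at 0.13 ± 0.04 would change sign after recentring on the reference genes, all in the authors' deposited table. Of 18 genes that remove peroxide and superoxide 5 rose and 8 fell. The peroxiredoxins Prdx4 (1.14 ± 0.09) and Prdx1 (0.54 ± 0.04) rose in the authors' deposited table. The other peroxiredoxins listed were lower, with Prdx5 at -1.15 ± 0.05, Prdx2 at -0.93 ± 0.06, Prdx6 at -0.67 ± 0.05 and Prdx3 at -0.57 ± 0.06 in the authors' deposited table. Txnip, which binds and inhibits thioredoxin, rose by 2.995 ± 0.063 (7.97-fold) in the authors' deposited table. NRF2 pathway genes rose in 14 of 26 cases and fell in 8, with Gstm1 at 1.69 ± 0.04 and Srxn1 at -0.71 ± 0.07 in the authors' deposited table. TGACNNNGC, the antioxidant response element bound by NRF2, was present in 3 of 15 windows of higher NRF2 pathway and peroxide genes, in 5 of 14 windows of lower ones (35.7%) and in 12.4% of all windows. Over all listed genes with a window it was present in 14.9% of higher and 15.3% of lower ones. Ferritin heavy chain, Fth1, fell by 0.77 ± 0.05 and the iron importer Tfrc rose by 0.99 ± 0.06, while the copper ferroxidase Cp was at 1.73 ± 0.07 in the authors' deposited table.

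Genes of proteins that bind and splice RNA were mostly higher. Of 42 SR and hnRNP genes 34 rose and 4 fell, with a median of 0.51; Srsf3 was at 1.14 ± 0.05, Srsf1 at 1.01 ± 0.05 and Hnrnpa1 at 0.90 ± 0.05 in the authors' deposited table. Of 360 genes with a Zfp symbol, most of them zinc finger factors, 154 rose and 56 fell, with Zfp57 at 1.47 ± 0.10 and Zfp707 at -2.70 ± 0.08 in the authors' deposited table. Cytosolic ribosomal protein genes moved little in either direction: 24 of 92 rose and 36 fell, within -0.75 to 0.68. Aminoacyl-tRNA synthetases rose in 11 of 21 cases and fell in 3, with Tars at 1.09 ± 0.05 in the authors' deposited table. Genes of endoplasmic reticulum stress fell in 14 of 24 cases and rose in 7, with Edem1 at -1.39 ± 0.05 and the sensor Ern1 (IRE1) at -1.28 ± 0.07 in the authors' deposited table. In the integrated stress response Mthfd2 was at 1.43 ± 0.07 and Ddit3 (CHOP) at -0.80 ± 0.05 in the authors' deposited table.

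Interferon effectors rose in 21 of 40 cases and fell in 8, with a median of 0.57. With vehicle 13 of the 40 were higher and 0 lower. Of 9 effectors listed in both podocyte conditions 8 kept their direction, against 65.7% of all genes listed in both. Ifit3 was at 3.67 ± 0.31 (12.7-fold), with an SE 3.38 times the median of like genes, Ifit2 at 2.20 ± 0.09, the GTPase Gbp2 at 1.69 ± 0.14 and Ifit1 at 1.05 ± 0.19 in the authors' deposited table. Usp18, the protease that damps interferon signalling, fell by 1.32 ± 0.07, Ifi35 by 0.71 ± 0.06 and Ifitm2 by 0.61 ± 0.06 in the authors' deposited table. Class I antigen presentation rose in 10 of 16 genes and fell in 4. H2-Q4 was at 0.997 ± 0.06, H2-D1 at 0.35 ± 0.04 and H2-K1 at 0.25 ± 0.04, whereas Nlrc5, the transactivator of these genes, was at -0.999 ± 0.06 and the transporter Tap1 at -0.43 ± 0.04 in the authors' deposited table. Upstream, the viral RNA sensor Tlr3 was at 1.24 ± 0.15, the adaptor Mavs at -0.93 ± 0.07 and Tlr2 at -1.75 ± 0.08 in the authors' deposited table.

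The interferon-stimulated response element (GAAA, then NN, then GAAA) was present in 8 of 14 windows of higher effectors (57.1%) and in 4 of 7 windows of lower ones (57.1%), against 3.49% of all windows. The 250 bases before the start of Ifit3, which rose, and of Ifitm2, which fell, are shown with the match in capitals. They lie at chr19:34583279-34583528 (plus strand) and chr7:140955962-140956211 (minus strand).
Ifit3: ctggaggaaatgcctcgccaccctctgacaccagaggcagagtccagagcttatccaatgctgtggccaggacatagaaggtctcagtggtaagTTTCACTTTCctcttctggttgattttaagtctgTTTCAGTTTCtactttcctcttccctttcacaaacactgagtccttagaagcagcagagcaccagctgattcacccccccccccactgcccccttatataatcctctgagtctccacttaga
Ifitm2: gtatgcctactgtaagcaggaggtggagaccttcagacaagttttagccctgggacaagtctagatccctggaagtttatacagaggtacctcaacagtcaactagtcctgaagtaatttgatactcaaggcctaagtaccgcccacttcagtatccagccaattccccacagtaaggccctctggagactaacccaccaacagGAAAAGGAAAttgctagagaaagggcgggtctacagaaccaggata
The matches begin at -156 and -122 in Ifit3 and at -46 in Ifitm2.

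Wnt and Notch genes were mostly lower. Of 38 Wnt pathway genes 18 fell and 5 rose, with a median of -0.67: the ligand Wnt4 was at -2.18 ± 0.07 and the receptor Fzd5 at -1.73 ± 0.08, but the non-canonical ligand Wnt5a was at 2.24 ± 0.13 in the authors' deposited table. Of 16 Notch genes 8 fell and 2 rose. The target genes Hey1 (-2.50 ± 0.14), Nrarp (-2.03 ± 0.15) and Hey2 (-0.56 ± 0.16) fell with the ligands Dll1 (-0.79 ± 0.08) and Jag2 (-0.65 ± 0.06), while the ligand Jag1 rose by 1.71 ± 0.06 in the authors' deposited table. In TGF-beta signalling the activin antagonist follistatin, Fst, was at 2.51 ± 0.18, the receptor Tgfbr2 at 1.55 ± 0.07 and its partner Tgfbr1 at -1.25 ± 0.07 in the authors' deposited table. Guidance genes held both extremes: Sema5a was at 2.94 ± 0.10 and Sema3a at 2.21 ± 0.12, the plexins Plxnc1 and Plxnd1 at -2.90 ± 0.15 and -2.60 ± 0.07 in the authors' deposited table.

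Outside these families, the largest changes where the mean count was 100 or more were spread over unrelated functions. Ms4a2, the beta chain of the high-affinity IgE receptor, rose 28.0-fold (4.81 ± 0.25) and Abi3bp, a secreted matrix protein, 18.0-fold (4.17 ± 0.34) in the authors' deposited table. Cdh11, a mesenchymal cadherin, was at 2.87 ± 0.15 and Bst1, an ectoenzyme that cleaves NAD, at 2.54 ± 0.12 in the authors' deposited table. The SE of Abi3bp was 5.62 times and that of Ms4a2 3.18 times the median of genes with like mean counts. At the lower end were Cited1, a coactivator that binds CBP and p300 (-4.15 ± 0.28, or 17.7-fold lower), Adap1 (-3.47 ± 0.20), Nptx1, a neuronal pentraxin (-3.29 ± 0.11), the forkhead factor Foxo6 (-3.15 ± 0.12), Ccno (-3.08 ± 0.15) and Col11a2 (-3.02 ± 0.16) in the authors' deposited table. Carnitine acetyltransferase, Crat, which interconverts acetyl-CoA and acetylcarnitine, fell by 2.68 ± 0.14 in the authors' deposited table.

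The direction of change varied with the base composition of transcripts. Among listed protein-coding genes split into 10 equal groups by the GC content of the longest coding transcript, the share that was higher fell from 74.7% in the group lowest in GC (median log2 fold change 0.44) to 27.1% in the group highest in GC (median -0.59). The same fall was seen among genes above the median mean count (68.3% to 19.6%) and among those at or below it (81.4% to 32.9%). By genomic gene length the share higher ran from 39.8% in the shortest group to 59.3% in the longest. In MEFs given Adriamycin the GC relation ran the other way, from 16.5% to 81.3% higher, and in vehicle podocytes the share was 60.6% at the lowest and 75.1% at the highest GC. The families differed in GC content: the median transcript was 44.1% GC for kinetochore, cohesin and condensin genes, 45.1% for SR and hnRNP genes and 46.2% for Zfp genes, against 54.5% for cathepsins. Relative to the median of each gene's own GC group, the kinetochore family was at 0.12, SR and hnRNP genes at 0.27, Zfp genes at 0.30, Fanconi anaemia genes at 0.87, actin genes at 0.66, cathepsins at -1.004, the V-ATPase at -0.56 and the respiratory chain at -0.15. Of 95 families with at least 5 listed members, 13 changed the sign of their median when set against GC, 12 when recentred on the reference genes and 2 when recentred on all listed genes, and 74 kept it throughout. The part of GC content in these results was not tested.

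**Figure D3:**
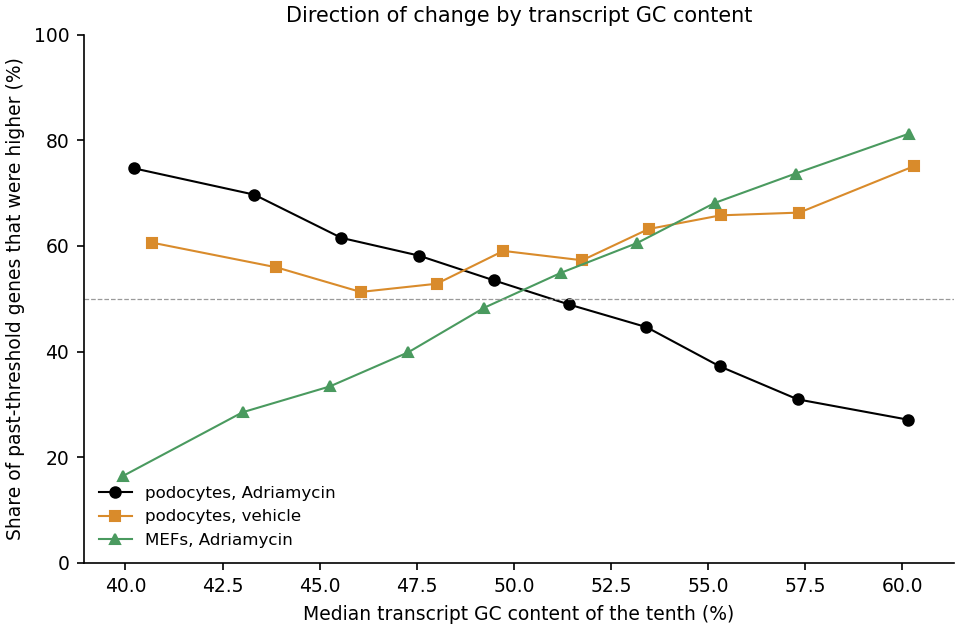
Share of past-threshold protein-coding genes that were higher in the Mof-depleted cells (vertical axis, %) against the median transcript GC content of 10 equal groups of genes (horizontal axis, %), for podocytes given Adriamycin (black circles), vehicle podocytes (orange squares) and MEFs given Adriamycin (green triangles). The black line falls from 74.7% to 27.1% while the green line rises from 16.5% to 81.3%.

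To ask whether the effect of the knockdown depended on the drug, fold changes were compared with those of vehicle podocytes, where 1990 of 13876 tested genes (14.3%) were listed. Of these, 1518 were also listed with Adriamycin, 76.3% of the vehicle list and 15.8% of the Adriamycin list. Among them 997 changed in the same direction and 521 in opposite directions, and the change differed for 962 (63.4%, z test with Benjamini-Hochberg adjustment). All 521 opposite genes were among the 962, which passing both thresholds with opposite signs nearly fixes in advance. Of the 997 genes of like direction, where the outcome was open, 441 differed. Genes of the actin programme were among the reversals. Ctgf was at 2.54 with Adriamycin and -0.85 ± 0.11 with vehicle, Ankrd1 at 2.26 and -0.59 ± 0.08, Acta2 at 2.20 and -0.36 ± 0.11, Thbs1 at 1.97 and -0.38 ± 0.11, and Cyr61 at 1.68 and -0.82 ± 0.17 in the authors' deposited table of each condition. The difference for Acta2 was 2.56 ± 0.13 (z test, adjusted p 9.66e-87) and that for Cyr61 2.50 (3.73e-45). Over the whole list of SRF, YAP and TEAD targets, 1 gene rose and 6 fell with vehicle, and 6 were listed in both conditions, of which 4 were opposite. Gdf15 also reversed, from -0.79 ± 0.17 with vehicle to 1.37 ± 0.08, and Cdkn1c the other way, from 0.87 ± 0.20 to -1.95 ± 0.17 in the authors' deposited table of each condition. Podocyte genes listed in both conditions were mixed. Opposite directions were seen in 1 of 5 slit diaphragm genes (Tjp1), 3 of 8 cytoskeleton and disease genes, 1 of 5 transcription factors and 3 of 6 surface, secreted and other markers (Efnb1, Mme and Npnt). Among those that kept their direction, Kirrel was at 0.61 ± 0.11 with vehicle and 1.53 ± 0.06 with the drug (difference adjusted p 4.93e-13), and Podxl at 0.56 ± 0.14 and 1.06 ± 0.09 (0.00387) in the authors' deposited table of each condition. Of 7 CDK inhibitors 6 were listed in both conditions and 5 kept their direction. Of the replication polymerase group 1 gene, and of the Fanconi anaemia group 0 genes, was listed with vehicle. Only genes past the threshold in both tables have a value in both, so genes listed only with the drug could not be tested for a difference. Such genes may also have changed with vehicle without passing the threshold there, so their absence does not show that the drug was needed.

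**Figure D4:**
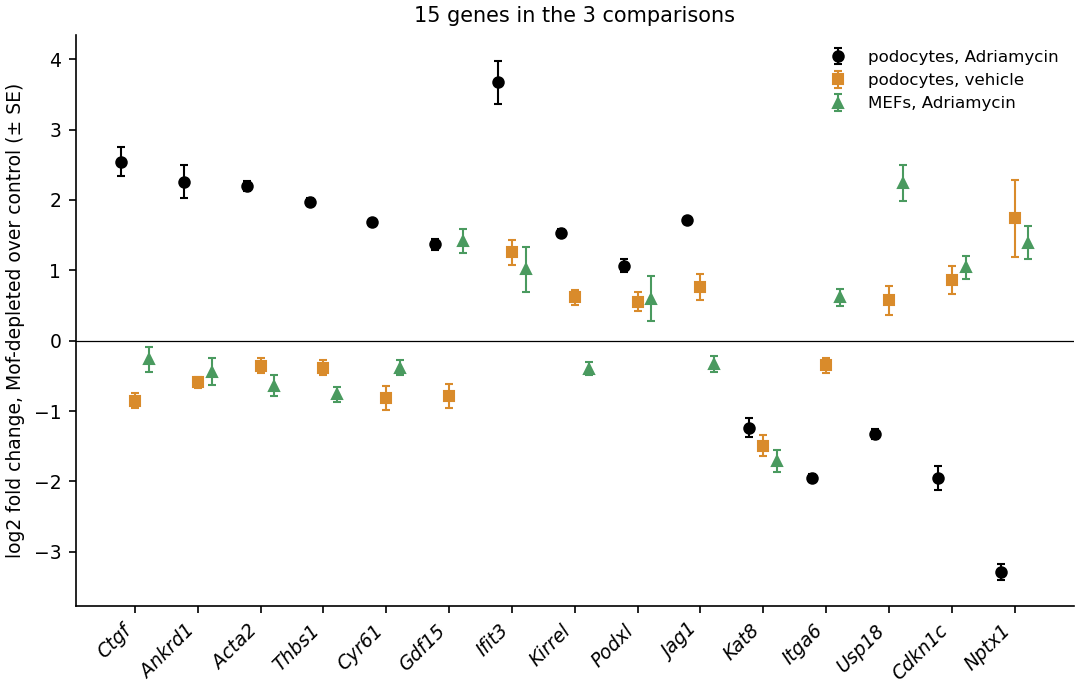
log2 fold change (Mof-depleted over control, vertical axis) with its SE for 15 genes in podocytes given Adriamycin (black circles), vehicle podocytes (orange squares) and MEFs given Adriamycin (green triangles). From Ctgf to Cyr61 the black points lie above 0 and the orange ones below it, while Kat8 lies below 0 in all 3 comparisons.

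In MEFs given Adriamycin, 4622 of 14139 tested genes (32.7%) passed the threshold. The cell type, the dose and the kind of Mof loss all differ from the podocyte comparison and cannot be told apart. Of the 3191 genes past the threshold in both tables (33.3% of the podocyte list and 69.0% of the MEF list), 815 changed in the same direction and 2376 in opposite directions. The change differed for 7398 of 9565 genes with a value in both (77.3%, z test with Benjamini-Hochberg adjustment), all of which had passed the threshold in podocytes. These 7398 included all 2376 opposite genes, an outcome nearly fixed in advance, and 240 of the 815 genes of like direction. Opposite directions made up 74.5% of the 3191 genes, the share to set beside the families. Direction also ran opposite ways with transcript GC content. From the lowest to the highest GC group the share higher went from 74.7% to 27.1% in podocytes and from 16.5% to 81.3% in MEFs. The part of GC content in the counts of opposite genes was not tested. Of 13 V-ATPase genes past the threshold in both 12 were opposite, of 5 cathepsins all 5, of 8 lysosomal membrane genes all 8 and of 19 lysosomal hydrolases 12. Ctsd was at -0.93 ± 0.04 in podocytes and 0.52 ± 0.07 in MEFs, and Ctsl at -0.62 ± 0.06 and 1.03 ± 0.08 in the authors' deposited table of each cell type. Of 12 genes of the replication polymerase group past the threshold in both, 11 were opposite, and of 89 Zfp genes 77. Of 18 interferon effectors past the threshold in both, 12 were in the same direction. Gdf15 (1.37 ± 0.08 and 1.42 ± 0.17), Rtp4 (1.24 ± 0.18 and 1.66 ± 0.33), Ube2l6 (1.20 ± 0.15 and 1.41 ± 0.23), Cp (1.73 ± 0.07 and 1.08 ± 0.28) and Ifit3 (3.67 ± 0.31 and 1.01 ± 0.32) rose in podocytes and in MEFs in the authors' deposited table of each cell type. Usp18 was opposite, at -1.32 ± 0.07 in podocytes and 2.24 ± 0.26 in MEFs in the authors' deposited table of each cell type.

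**Figure D5:**
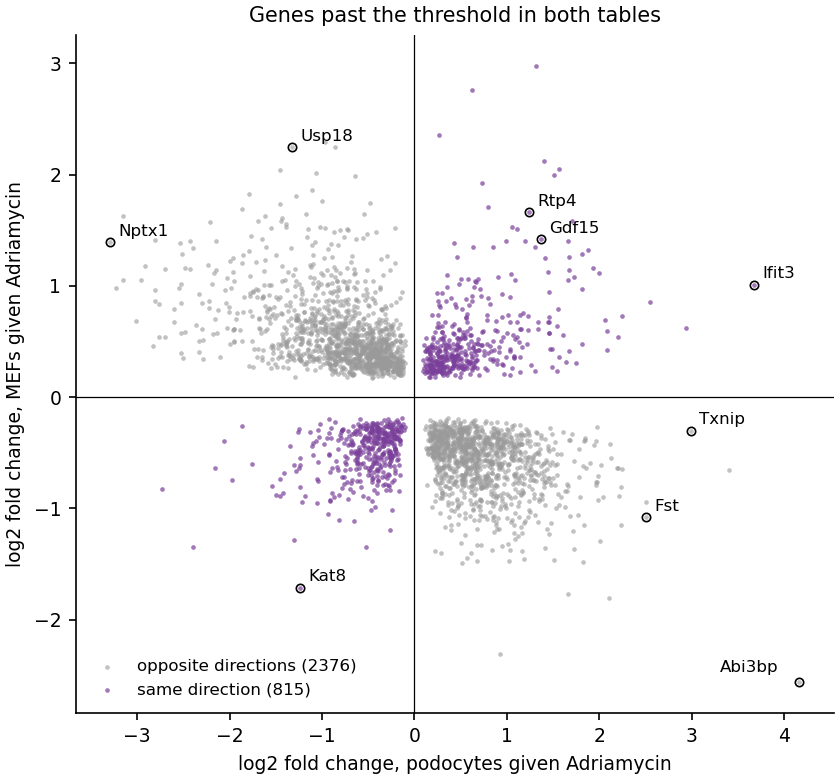
log2 fold change in podocytes given Adriamycin (horizontal axis) against that in MEFs given Adriamycin (vertical axis) for the 3191 genes past the threshold in both tables; purple points share a direction and grey points do not. The 2376 grey points fill the upper left and lower right, and Kat8, Gdf15, Rtp4 and Ifit3 are among the 815 purple ones.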

How the data were processed

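RNA was measured by sequencing of poly(A) libraries from 3 Mof knockdown and 3 scramble samples of MPC5 podocytes given Adriamycin. The build GRCm38 and the tools TopHat2 2.0.13 (an aligner), featureCounts 1.4.5-p1 (a read counter) and DESeq2 1.4.1 (a test on counts) are named in the submitters' processing notes, without their settings. Only the authors' deposited comparison tables were used, with no value per sample. Per the file headers, the authors gave for each gene a mean normalized count over both groups (a signal that keeps no library depth), a log2 fold change with its SE, a Wald statistic (a score), a p-value and an adjusted p-value. This version of DESeq2 shrinks fold changes by default, and the notes do not say if that setting was used. The deposited log2 fold changes equal the Wald statistic times the SE.

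From these values the number of tested genes was recovered from the ratio of p-value to adjusted p-value. The sign of Kat8 gave the direction of the podocyte tables. Differences between comparisons were tested with a two-sided z test (difference over the root of the summed squared SEs) with Benjamini-Hochberg adjustment and an adjusted p below 0.05, and the calculation was checked on simulated data. Members and gene lists (38 lists, 105 families, 3049 genes, of which 1980 were listed) were chosen with earlier results of these data known. Families are described by counts and medians, with no test of a set. The genes named are Kat8, the top 15 and bottom 15 genes by log2 fold change at a mean count of 100 or more, in each family the 3 higher and 3 lower members with the smallest adjusted p, every member of families of up to 20 genes, the 10 highest mean counts, the 5 largest differences in each direction and the 10 largest changes shared with MEFs. Transcript GC content came from GENCODE M21 and promoter windows from RefSeq GRCm38.p6, in which 7 motifs were searched on both strands. Alternatives were other thresholds, Holm adjustment, a mean count minimum, protein-coding genes only and recentred fold changes. Python 3.11.15, pandas 2.3.3, numpy 2.4.6, scipy 1.17.1 and matplotlib 3.10.9 were used. The MEF vehicle table was not used, and a few genes that the rule names are not reported here.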

Additional observations from a re-analysis of the deposited data

Results flagged for a closer look

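The genes below had the largest differences, in each direction, between the effect of Mof loss in podocytes given Adriamycin and its effect in another comparison, where the mean count was 100 or more in both tables. Each difference passed a z test with Benjamini-Hochberg adjustment over all genes compared, and is given as the podocyte Adriamycin value less the other value on the log2 scale, with its SE. Values of single samples were not available for any of them.

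Against vehicle podocytes, 5 genes were further above. Ctgf, a secreted matricellular protein, differed by 3.40 ± 0.23 and Ankrd1, a muscle ankyrin-repeat protein, by 2.85 ± 0.25, both higher with Adriamycin and lower with vehicle. Acta2 differed by 2.56 ± 0.13 and the zinc finger factor Ikzf2 by 2.59 ± 0.20, again with opposite signs (Ikzf2 at 2.20 with Adriamycin and -0.39 with vehicle). Ms4a2 was higher in both conditions, at 4.81 and 1.61, and differed by 3.20 ± 0.50. A further 5 genes were lower with Adriamycin and higher with vehicle. Rhbdl3 differed by -3.89 ± 0.39, the angiopoietin Angpt4 by -3.67 ± 0.23, Sned1 by -3.60 ± 0.40, the orphan receptor Gpr146 by -3.25 ± 0.21 and the secreted kinase Pkdcc by -3.16 ± 0.20. Genes listed in 1 podocyte table alone were not compared.

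Against MEFs given Adriamycin, all 10 genes had opposite signs. Abi3bp was at 4.17 in podocytes and -2.56 in MEFs, a difference of 6.73 ± 0.45. Fst differed by 3.59 ± 0.24, the protocadherin Pcdh18 by 3.45 ± 0.25, Txnip by 3.30 ± 0.11 and Sema3a by 3.10 ± 0.22. Nptx1 was at -3.29 in podocytes and 1.39 in MEFs, a difference of -4.68 ± 0.26. The kinesin Kif17 differed by -3.85 ± 0.29, the potassium channel Kcnj4 by -3.80 ± 0.20, the collagen chain Col11a2 by -3.70 ± 0.25 and the lysosomal transporter Abcb9 by -3.67 ± 0.20. Cell type, dose and the kind of Mof loss differ between these comparisons and cannot be told apart.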

How the results depend on the processing

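With Holm adjustment 2942 genes were higher and 3130 lower, against 4776 and 4802. Recentred on the 14 listed reference genes, which ranged from -0.99 to 1.12 around a median of 0.24, 2984 genes were higher and 4828 lower. The share higher was then 38.2% against 49.9%. Recentring on the median of the listed genes (-0.12) left 4776 and 3982. Adjusted p below 0.01 or below 0.001, a mean count minimum of 100 and protein-coding genes only kept both counts within 1.5 times, as did recentring by GC group, which was chosen after seeing the data (3673 higher, 3724 lower). Recentring could be applied to listed genes only. Of 210 counts of family members, 5 moved by more than 1.5 times with adjusted p below 0.01, 10 when recentred on the listed median and 50 when recentred by GC group. Kat8 stayed below 0 under each recentring, between -1.48 and -1.08. The number of genes whose change differed was 879 to 962 for vehicle podocytes and 5802 to 7398 for MEFs over the alternatives run. No paired analysis was possible because the deposited tables hold no value per sample, and for the same reason no sample could be left out. The median SE fell from 0.407 in the group of genes with the lowest mean counts to 0.0469 in the highest of 10 equal groups, so small changes of low genes could not be detected.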

Other observations

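Some gene types outside protein coding leaned to one direction and others did not. Processed pseudogenes were even, with 58 higher and 59 lower of 117. Of 155 listed antisense genes 124 were lower and 31 higher, at a median of -1.08 on the log2 scale. Of these, 98 overlap a listed coding gene, which changed in the same direction in 65 cases and in the opposite direction in 33. The strand setting of the counting is not given in the sources available, so reads of an antisense gene and its partner cannot be told apart. Of 24 listed small nucleolar RNA genes, which guide the modification of ribosomal RNA, 23 were higher and 1, Snora41, was lower (-1.14 ± 0.29 in the authors' deposited table; named after its value was seen). Their mean counts were low, between 4.13 and 41.3, and poly(A) selection is not designed to capture these RNAs. Of 143 long intergenic RNA genes 54 were higher and 89 lower.

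Of 47 families defined by symbol alone, each with at least 15 listed genes, 32 had between 40% and 60% of their listed genes higher, 8 had less and 7 had more. Of 24 listed genes with a Vps symbol 21 were lower, and of 151 solute carrier (Slc) genes 101 were lower. At the upper end were 14 of 17 nucleoporin (Nup) genes, 15 of 18 methyltransferase-like (Mettl) genes and 20 of 28 DEAD-box helicase (Ddx) genes higher, while other families such as Polr (10 of 20), Med (9 of 18) and Rpl (17 of 34) were even. Median transcript GC content was 51.1% for the Vps genes, 53.2% for the Slc genes, 47.6% for the Nup genes, 47.2% for the Mettl genes and 47.4% for the Ddx genes; its part in these counts was not tested. Among nuclear chromosomes, the share of listed genes that was higher ran from 42.7% on chromosome 12 to 64.9% on the X chromosome, where median transcript GC was 46.2%. Of 8 listed genes of the mitochondrial genome 1 was higher.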
